A study of Mus musculus with 20 samples.

Results

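Fshr and Lhcgr are the genes of the FSH receptor and of the LH receptor, which granulosa cells (GCs) use to read the pituitary gonadotropins. The 2 genes were taken by their symbols in the GENCODE M21 annotation from 55487 gene identifiers, and both were found in every sample and passed the filter on low counts in every comparison. GCs were collected from 20 female mice, 5 in each of 4 groups: ctrl mice in estrus, FL1 mice in estrus, ctrl mice in diestrus and FL1 mice in diestrus. FL1 mice belong to a line that was bred for large litters, while the ctrl line descends from the same founders and was never selected, so that each line is a single breeding population. The mice were 77 ± 5 days old and untreated, and the stage was read from the cells of a vaginal smear. Mural GCs of 7 to 10 of the largest follicles of a mouse were pooled to 1 sample, with care taken to leave out the oocyte and its cumulus cells.

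The FSH and LH receptors are G protein-coupled receptors with a large extracellular domain that binds the hormone. Both act mainly through the stimulatory G protein, adenylyl cyclase and cAMP, which activates protein kinase A. FSHR is the receptor by which GCs of growing follicles respond to FSH with proliferation and with expression of aromatase. LHCGR appears in mural GCs late in follicle growth, under FSH and estradiol, and prepares them for the LH surge that triggers ovulation and luteinization. Theca cells carry LHCGR as well, and luteal cells keep it after ovulation, whereas FSHR in the ovary is a marker of GCs.

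In GRCm38, Lhcgr (ENSMUSG00000024107) lies on the minus strand at chr17:88716481-88791990 and Fshr (ENSMUSG00000032937) on the same strand at chr17:88984952-89200675, with 193.0 kb between them. Fshr has 1 annotated transcript with 10 exons. Lhcgr has 4 transcripts, of which 1 is protein coding, and up to 11 exons. No other annotated gene overlaps either of them, and the last 500 nt of their coding transcripts had no match of at least 90% identity over at least 100 nt in a transcript of another gene. The libraries read the 3′ end of polyadenylated RNA, so a count stands for a transcript end and does not grow with transcript length.

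The sequences before the start sites show how different the control regions of these neighbours are, and are given here because the levels of factors that bind such motifs are reported further on. Each is the 250 bases upstream of the RefSeq start site on GRCm38.p6, minus strand, read 5′ to 3′. Capitals mark the E-box CACGTG, a binding motif of the USF factors, and the GC box GGGCGG, a binding motif of Sp1 and Sp3.
Fshr, chr17:89200676-89200925: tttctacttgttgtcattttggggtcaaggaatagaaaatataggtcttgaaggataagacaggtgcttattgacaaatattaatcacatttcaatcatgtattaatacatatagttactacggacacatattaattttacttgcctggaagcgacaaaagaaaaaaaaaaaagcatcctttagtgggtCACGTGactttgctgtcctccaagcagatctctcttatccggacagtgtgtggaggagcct
Lhcgr, chr17:88792015-88792264: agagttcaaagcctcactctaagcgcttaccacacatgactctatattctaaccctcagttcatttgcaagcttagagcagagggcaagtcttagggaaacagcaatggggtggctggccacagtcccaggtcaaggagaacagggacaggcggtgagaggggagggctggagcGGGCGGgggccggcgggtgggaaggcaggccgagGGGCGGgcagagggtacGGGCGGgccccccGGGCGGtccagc

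The upstream sequence of Fshr had 36.8% G and C bases and 4 CpG pairs, that of Lhcgr 63.2% and 12, and the median over 32851 mouse promoters of this length was 52.4% with 6 CpG pairs. Only 6.7% of these promoters had a lower GC content than Fshr, and 79.2% had a lower one than Lhcgr. Both strands were searched. The E-box occurred once before Fshr, 61 bases upstream of the start site, and not before Lhcgr, and 6.02% of all promoters held it. The GC box occurred 4 times before Lhcgr, 76, 42, 25 and 12 bases upstream, and not before Fshr, and 32.7% of all promoters held it. The letters AAGGTCA (a site of the NR5A receptors), TATAAA, TGACGTCA and AGATAA were in neither window. These matches describe the sequence and are not evidence of binding.

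Fshr was higher in diestrus than in estrus. Expression is given as CPM, the reads of a gene scaled by TMM to the library size over all samples. In ctrl mice in estrus Fshr was at 38.0, 44.8, 50.3, 40.2 and 54.6 CPM. In FL1 mice in estrus it was at 53.0, 31.6, 37.7, 77.1 and 71.6 CPM. The values of the lines overlapped in estrus, with those of the FL1 mice spread more widely on both sides. In ctrl mice in diestrus Fshr was at 110, 202, 101.5, 202 and 133 CPM. In FL1 mice in diestrus it was at 85.2, 101.2, 77.99, 91.8 and 175 CPM. Every mouse in diestrus lay above every mouse in estrus of its own line. These values rested on 241 to 1507 reads of Fshr in a mouse.

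**Figure D1:**
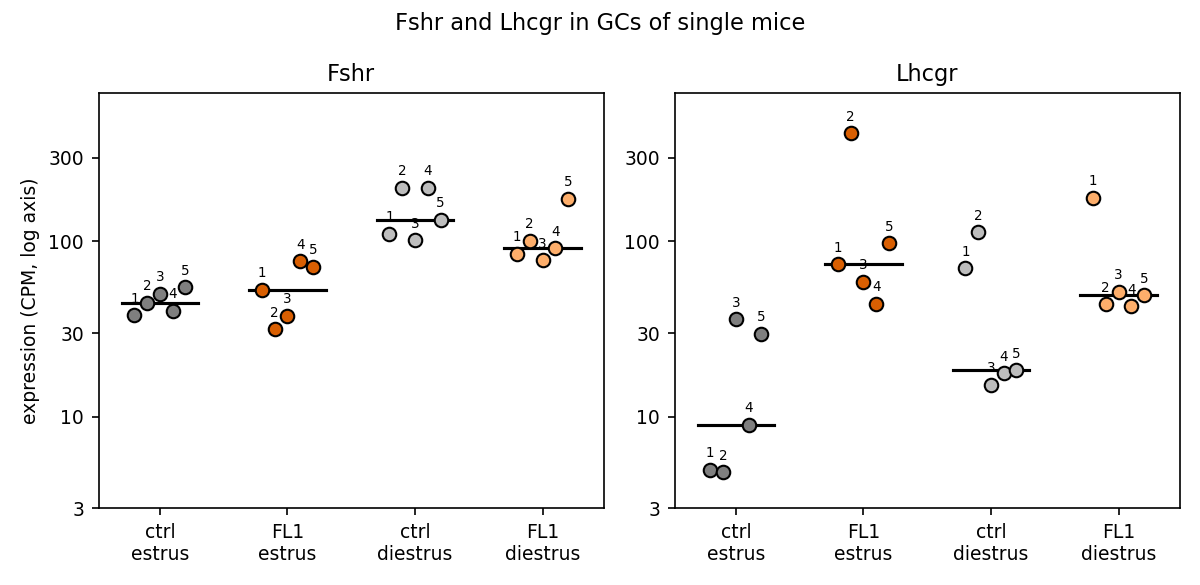
Expression of Fshr (left) and Lhcgr (right) in CPM on a log axis in the 4 groups. Each point is 1 mouse with its replicate number and the bar is the median of the 5 mice. The Fshr values of diestrus lay above those of estrus in both lines, and Lhcgr was between 44.2 and 415 CPM in FL1 mice in estrus but between 4.82 and 36.0 CPM in ctrl mice in estrus.

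The group means of Fshr in ascending order were 45.6 ± 6.93 CPM in ctrl mice in estrus, 54.2 ± 20.1 in FL1 mice in estrus, 106.2 ± 39.3 in FL1 mice in diestrus and 150 ± 49.2 in ctrl mice in diestrus (SD, n = 5). No test between neighbours in this order passed the threshold, although FL1 mice in estrus and in diestrus did not overlap. In ctrl mice Fshr was 3.27-fold stronger expressed in diestrus than in estrus (log2 fold change 1.71, SE 0.23, 95% interval 1.22 to 2.20, adjusted p = 0.00155 by edgeR's quasi-likelihood test). In that comparison 1.36% of 12850 genes tested were called at an adjusted p of 0.05 or less. In FL1 mice the change was 1.94-fold (log2 fold change 0.96, SE 0.29, 95% interval 0.35 to 1.56), which did not pass the threshold (adjusted p = 0.197 by edgeR), where 0.221% of 13114 genes were called. With line as a covariate and all 20 mice, Fshr was 2.54-fold higher in diestrus (log2 fold change 1.34, SE 0.20, adjusted p = 2.47e-04 by edgeR), beside 3.17% of 14938 genes called. The call in ctrl mice was present in each of the 10 fits that left out 1 mouse, and the call over both lines in each of 20.

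For the line no difference of Fshr passed the test. In estrus the log2 fold change of FL1 against ctrl mice was 0.25 (95% interval -0.32 to 0.81, adjusted p = 0.842 by edgeR). In diestrus it was -0.49 (95% interval -1.05 to 0.07, adjusted p = 0.970 by edgeR), with a lower mean in FL1 mice. Over both stages it was -0.13 (95% interval -0.54 to 0.28, adjusted p = 0.915 by edgeR). These intervals leave room for up to 1.75-fold more Fshr in FL1 mice in estrus and for as little as 0.485 times the ctrl level in diestrus. On the log2 scale the stage effect of Fshr was 0.75 smaller in FL1 mice, but the interaction of line and stage had an interval of -1.52 to 0.03 and an adjusted p of 1.00 (edgeR). In that test 0% of 14938 genes were called, with 710 genes at an unadjusted p below 0.05. DESeq2 and limma-voom called 0 genes as well, with 758 and 903 genes at an unadjusted p below 0.05.

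Lhcgr was higher in FL1 than in ctrl mice in estrus. In ctrl mice in estrus Lhcgr was at 4.97, 4.82, 36.0, 9.01 and 29.7 CPM, from 31 to 314 reads. In FL1 mice in estrus it was at 74.3, 415, 58.9, 44.2 and 97.4 CPM, from 314 to 3317 reads. All 5 FL1 mice lay above all 5 ctrl mice, and replicate 2 of the FL1 mice stood far above the others. In ctrl mice in diestrus Lhcgr was at 70.5, 112.99, 15.2, 17.7 and 18.4 CPM. In FL1 mice in diestrus it was at 177, 43.7, 51.5, 42.7 and 49.2 CPM. In diestrus the lines overlapped, since 2 ctrl mice were above 4 of the FL1 mice.

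In estrus Lhcgr was 8.14-fold stronger expressed in FL1 mice (log2 fold change 3.02, SE 0.65, 95% interval 1.66 to 4.38, adjusted p = 0.0327 by edgeR). In this comparison 0.769% of 13007 genes were called. The size of the difference rested in part on replicate 2 of the FL1 mice, which held 65.6% of the Lhcgr reads of its group. Without it the mean of the FL1 mice in estrus was 68.7 ± 22.8 CPM (SD, n = 4), the log2 fold change was 2.02 and the adjusted p was 0.105 (edgeR), with no overlap of the lines. The call was also lost without ctrl replicate 1, 2 or 4, which left log2 fold changes of 2.79, 2.79 and 2.87 and adjusted p-values of 0.0738, 0.0873 and 0.0803 (edgeR). It passed in 6 of the 10 fits that left out 1 mouse. It also missed the threshold with limma-voom (adjusted p = 0.0618) and with robust estimation in edgeR (adjusted p = 0.214), while DESeq2 gave an adjusted p of 0.0131.

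In diestrus the log2 fold change of Lhcgr between the lines was 0.64 (95% interval -0.52 to 1.81, adjusted p = 1.00 by edgeR), beside 0.248% of 12886 genes called. It was 0.0034 without FL1 diestrus replicate 1 and 1.27 without ctrl diestrus replicate 2, the lowest and highest values with 1 mouse left out. Over both stages Lhcgr was 3.53-fold higher in FL1 mice (log2 fold change 1.82, SE 0.55, 95% interval 0.70 to 2.94), which did not pass the test (adjusted p = 0.106 by edgeR), where 1.21% of 14938 genes were called. Leaving out ctrl diestrus replicate 2, the ctrl mouse with the most Lhcgr, moved the log2 fold change to 2.18, at an adjusted p of 0.0206 (edgeR). The line effect was smaller in diestrus than in estrus by 2.39 on the log2 scale (95% interval -4.27 to -0.51). With 1 mouse left out this difference ranged from -3.03 without FL1 diestrus replicate 1 to -1.38 without FL1 estrus replicate 2. The unadjusted p of this interaction was 0.0145 and its adjusted p 0.982 (edgeR), so a difference between the stages was not established among the genes tested.

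No stage effect on Lhcgr passed the test. In ctrl mice the log2 fold change of diestrus against estrus was 1.47 (95% interval 0.10 to 2.84, adjusted p = 0.374 by edgeR), and it ranged from 0.85 without ctrl diestrus replicate 2 to 1.95 without ctrl estrus replicate 3. In FL1 mice it was -0.92 (95% interval -2.07 to 0.23, adjusted p = 0.670 by edgeR), and without FL1 estrus replicate 2 it was 0.08. The group means of Lhcgr in ascending order were 16.9 ± 14.8 CPM in ctrl mice in estrus, 47.0 ± 43.6 in ctrl mice in diestrus, 72.9 ± 58.5 in FL1 mice in diestrus and 138 ± 156 in FL1 mice in estrus (SD, n = 5). No test between neighbours in this order passed the threshold.

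**Figure D2:**
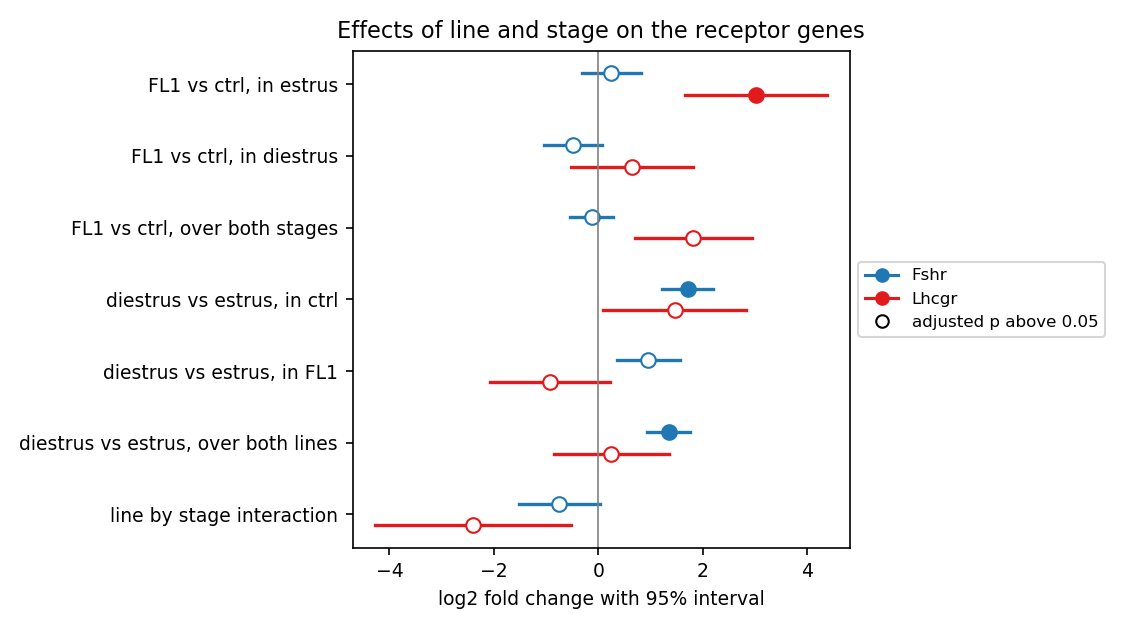
Log2 fold changes of Fshr (blue) and Lhcgr (red) with 95% intervals in the 7 comparisons, where filled points have an adjusted p of 0.05 or less in edgeR and the intervals are not corrected for the number of genes. Fshr was called for the stage in ctrl mice and over both lines, and Lhcgr for the line in estrus.

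The receptor genes also differed in their spread between mice of a group. The highest Fshr value of a group was between 1.44 and 2.44 times the lowest. For Lhcgr this factor was 7.48 in ctrl mice in estrus, 7.41 in ctrl mice in diestrus, 9.40 in FL1 mice in estrus and 4.15 in FL1 mice in diestrus. In FL1 mice the wide spread rested on 1 mouse of each group. Without the highest mouse Lhcgr was between 44.2 and 97.4 CPM in FL1 mice in estrus and between 42.7 and 51.5 CPM in FL1 mice in diestrus. Across the 20 mice the log2 CPM of Fshr and Lhcgr had a Pearson correlation of 0.09, and of -0.07 after the group means were taken off. Since whole GC samples were sequenced, fewer cells that carry a receptor and less receptor RNA per cell cannot be told apart.

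The ratio of Lhcgr to Fshr reads in the same mouse does not depend on sequencing depth. It is compared between mice only, because reads of different genes are not a ratio of molecules. As log2 values it was -2.92, -3.20, -0.48, -2.15 and -0.88 in ctrl mice in estrus. In FL1 mice in estrus it was 0.49, 3.72, 0.64, -0.80 and 0.44. In 4 of 5 FL1 mice in estrus Lhcgr thus had more reads than Fshr, and in none of the 5 ctrl mice. In ctrl mice in diestrus the log2 ratio was -0.65, -0.84, -2.73, -3.51 and -2.85, and in FL1 mice in diestrus 1.06, -1.21, -0.60, -1.10 and -1.83.

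**Figure D3:**
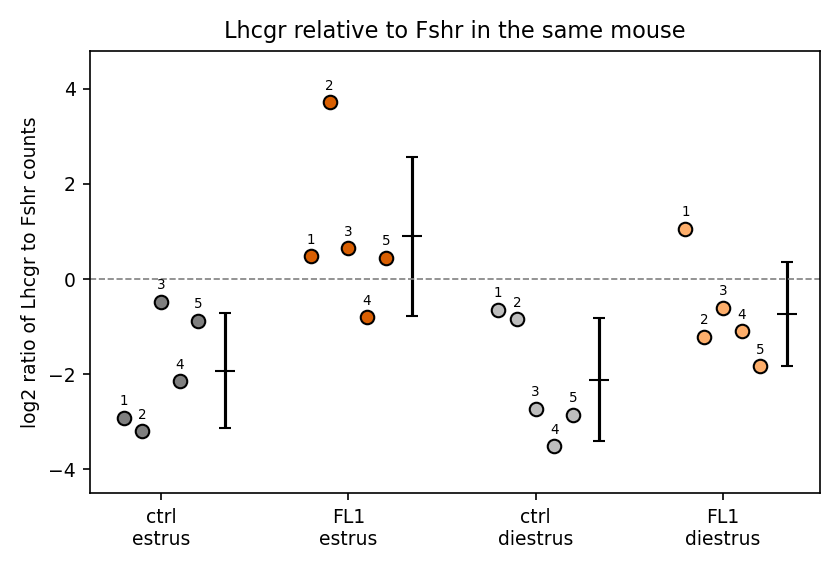
Log2 ratio of Lhcgr to Fshr read counts in each mouse, with its replicate number, in the 4 groups. The bars beside the points are mean ± SD of 5 mice, and the dashed line marks equal counts. The mean was 0.90 in FL1 mice in estrus and between -2.12 and -0.74 in the other groups.

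The mean log2 ratio was 2.82 higher in FL1 than in ctrl mice in estrus (0.90 ± 1.68 against -1.92 ± 1.21, SD, n = 5, two-sided exact permutation p = 0.0159). Adjusted over the 4 comparisons of the ratio p was 0.0635, so that it missed the threshold. In diestrus the difference was 1.38 (-0.74 ± 1.09 against -2.12 ± 1.29, SD, n = 5, exact permutation p = 0.103, adjusted 0.159). Between the stages it was -0.19 in ctrl mice (exact permutation p = 0.754) and -1.63 in FL1 mice (exact permutation p = 0.119, adjusted 0.159). The smallest p that 5 against 5 mice can give is 0.00794. With 1 mouse left out the difference between the lines ranged from 2.12 to 3.25 in estrus and from 0.93 to 1.75 in diestrus.

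Transcripts of the hormones were at or near 0. Fshb and Lhb, which encode the hormone-specific subunits of FSH and LH, had no read in any of the 20 mice, which allows up to 3 reads or 0.551 CPM in the smallest library, and Cga, the common alpha subunit, stayed at or below 4.38 CPM. Of the 8 genes of the receptor family, 5 passed the filter in each comparison within a line or a stage. Tshr, the receptor of thyrotropin, and the relaxin receptors Rxfp1 and Rxfp2 did not. Lgr4, a receptor for R-spondins, had group means between 39.3 and 74.0 CPM, and neither it nor its relatives Lgr5 and Lgr6 were called in any comparison. Of the 4 other protein-coding genes within 500 kb of the receptor genes, Foxn2, Ppp1r21, Ston1 and Gtf2a1l, none was called either. Their log2 fold changes where tested lay at 0.76, 0.51 and -0.17 for Foxn2, Ppp1r21 and Ston1 between the lines in estrus, and Gtf2a1l had at most 84 reads in a mouse.

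Few RNAs of the cAMP pathway downstream of the receptors were called, as few were among all genes. Between 0% and 3.17% of all genes were called by edgeR in a comparison, and 4.75% to 14.6% had an unadjusted p below 0.05. Short lists hold few calls at such shares, so these counts are not a result about the pathway. Of 15 G protein and adenylyl cyclase genes, of which 10 to 12 were tested, edgeR called Adcy9 alone, for the stage in ctrl mice (beside 1.36% of all genes) and over both lines (3.17%). Adcy9, a membrane adenylyl cyclase, was 2.50-fold higher in diestrus in ctrl mice (log2 fold change 1.32, adjusted p = 0.0360 by edgeR) and 1.82-fold over both lines (adjusted p = 0.0309 by edgeR), with the call present in 3 of 10 and 13 of 20 fits that left out 1 mouse. DESeq2 also called Adcy9 higher in FL1 mice in estrus and Gna11, another G protein subunit gene, lower in diestrus over both lines. Gnas, the stimulatory G protein subunit, had group means between 702 and 875 CPM and log2 fold changes between -0.32 and 0.23 in the 4 comparisons within a stage or a line. Of 15 cAMP effector genes, of which 14 or 15 were tested, none was called by edgeR, with at most 4 at an unadjusted p below 0.05 in a comparison, while DESeq2 and limma-voom called Prkar1a, a regulatory subunit of protein kinase A, lower in diestrus over both lines. The highest was Prkar2b, another such subunit, with group means between 2377 and 3500 CPM. Of 13 phosphodiesterase genes, which encode enzymes that break down cyclic nucleotides, 10 were tested for the stage in ctrl mice and Pde7b was called, 4.09-fold higher in diestrus (adjusted p = 0.0293 by edgeR), and in 4 of 10 fits that left out 1 mouse. There limma-voom called Pde1a and not Pde7b, and over both lines DESeq2 called Pde7b higher and Pde3b lower. Of 15 genes of receptor desensitization and trafficking 12 or 13 were tested in a comparison, and none was called by edgeR, DESeq2 or limma-voom, with at most 3 at an unadjusted p below 0.05 in a comparison by edgeR. Rgs2, which dampens G protein signals, was the highest of them, with group means between 1264 and 1688 CPM.

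Of 18 genes that encode regulators of the receptor genes, of which 17 or 18 were tested, edgeR called Foxo1 alone, for the stage in ctrl mice (beside 1.36% of all genes) and over both lines (3.17%), and in every fit of these that left out 1 mouse. Foxo1, a transcription factor of growing follicles, was 1.97-fold higher in diestrus in ctrl mice (log2 fold change 0.98, adjusted p = 0.0143 by edgeR) and 1.96-fold over both lines (adjusted p = 3.38e-04 by edgeR). Over both stages its log2 fold change between the lines was -0.47 (adjusted p = 0.130 by edgeR), and DESeq2 and limma-voom called it lower in FL1 mice. Both also called Foxo1 higher in diestrus in FL1 mice, and over both lines Esr2, the estrogen receptor beta gene, higher and Mvk lower in diestrus. For the factors whose motifs were found upstream, the log2 fold change between the lines in estrus was 0.55 for Usf1, 0.83 for Usf2, 0.04 for Sp1 and 0.10 for Sp3. Between the stages in ctrl mice it was 0.75, 0.05, 0.02 and -0.03 for the same genes. None of these values passed the test. The nuclear receptors Nr5a1 and Nr5a2, which drive steroidogenic genes, had log2 fold changes between -0.28 and 0.60 in the 4 comparisons within a stage or a line.

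Many genes known to be induced by FSH differed between the stages. Of 18 such genes tested, 9 were called over both lines, 7 higher and 2 lower in diestrus, beside 3.17% of all genes, and the median log2 fold change was 0.60 where that of all genes was 0.02. Grem1, an inhibitor of bone morphogenetic proteins, was 8.03-fold higher in diestrus (adjusted p = 0.00108 by edgeR). Cyp19a1, the aromatase that makes estradiol, was 2.98-fold higher (adjusted p = 0.0218 by edgeR) and Inhba, the activin beta A subunit, 2.76-fold (adjusted p = 0.0104 by edgeR). Fst, Gja1, Irs1 and Nppc were higher as well. Cyp11a1, which starts steroid synthesis, was 2.85-fold lower in diestrus and Timp1, a protease inhibitor, 3.16-fold lower (adjusted p = 0.0122 and 0.00884 by edgeR). With robust estimation 6 of the 18 were called, without Cyp19a1, Inhba and Cyp11a1. DESeq2 and limma-voom called 10 each, limma-voom without Cyp19a1, and between 7 and 13 were called when 1 mouse was left out.

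In ctrl mice alone 5 of the 18 FSH-induced genes were called for the stage, Fst, Grem1, Irs1 and Nppc higher and Timp1 lower in diestrus, beside 1.36% of all genes. DESeq2 called 7 and limma-voom 6. Leaving out 1 mouse left between 1 and 6 calls there, with 1 without ctrl estrus replicate 2 or ctrl diestrus replicate 3, and Fst was called each time. In FL1 mice edgeR called 0 of 18, with 12 at an unadjusted p below 0.05, beside 0.221% and 9.48% of all genes. There DESeq2 called 2 of the 18 and limma-voom 3. The median log2 fold change of the list was 0.50 in FL1 mice and 0.46 in ctrl mice, and the difference between the lines was not tested for the list. Between the lines in estrus 3 of 18 were called by edgeR, all higher in FL1 mice, beside 0.769% of all genes. These were Fdx1, which supplies electrons to CYP11A1, at 3.30-fold (adjusted p = 0.0327 by edgeR), the kinase gene Sgk1 at 3.57-fold (adjusted p = 0.0462 by edgeR) and Timp1 at 2.93-fold (adjusted p = 0.0152 by edgeR). Timp1 was called in 8, Fdx1 in 5 and Sgk1 in 2 of the 10 fits that left out 1 mouse, and none of the 18 without ctrl estrus replicate 2 or 3. DESeq2 called 5 of the 18, with Cyp11a1 higher and Hsd17b1, a gene of estradiol synthesis, lower in FL1 mice in addition. Limma-voom called Cyp11a1, Fdx1 and Timp1 but not Sgk1, and robust estimation Timp1 alone. In diestrus no gene of the list was called for the line by edgeR, DESeq2 or limma-voom. By edgeR 4 were at an unadjusted p below 0.05, beside 5.56% of all genes at such a p and 0.248% called. Over both stages Cyp11a1, Sgk1 and Timp1 were called higher in FL1 mice, beside 1.21% of all genes, and with robust estimation Sgk1 alone.

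**Figure D4:**
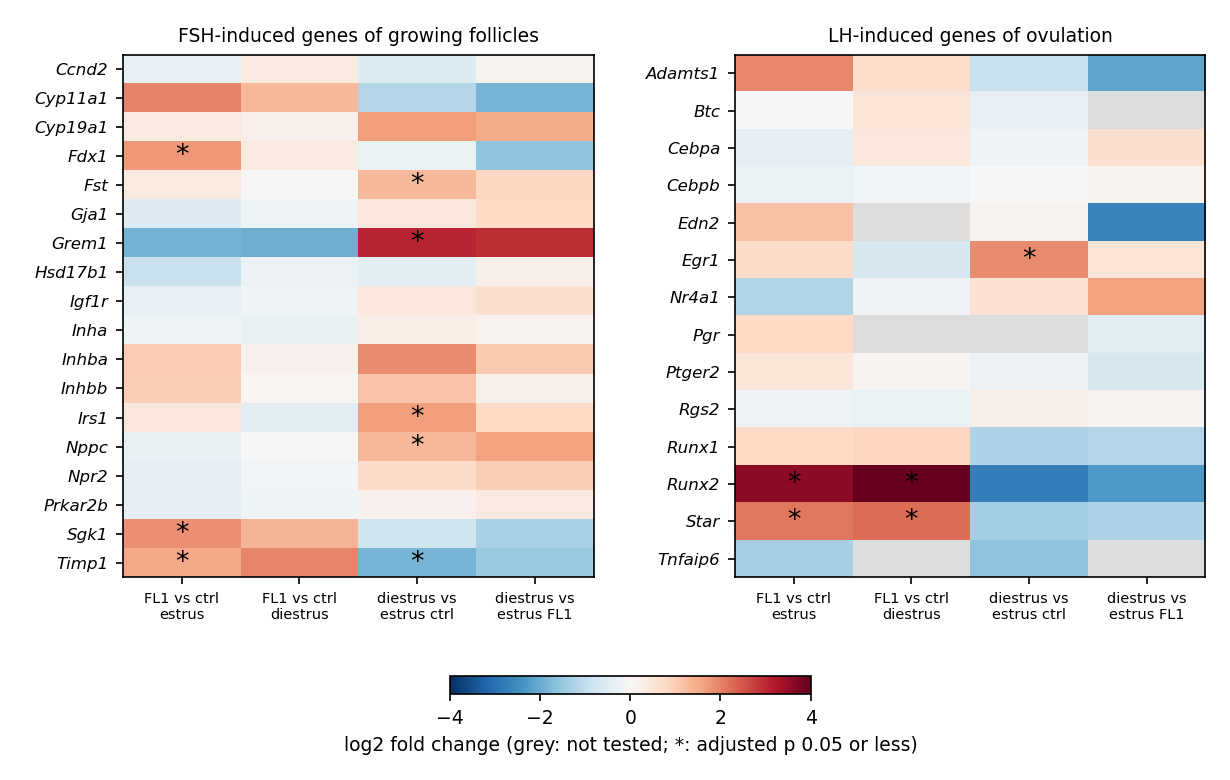
Log2 fold changes (colour, from -4 to 4) of genes known to be induced by FSH (left) and by LH (right) in the 4 comparisons within a stage or a line. Asterisks mark an adjusted p of 0.05 or less in edgeR and grey cells were not tested. FSH-induced genes were called mainly for the stage in ctrl mice, and Runx2 and Star for the line in both stages.

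Of 22 genes known to be induced by LH at ovulation, 14 passed the filter in the comparison of the lines in estrus and 2 were called, Runx2 and Star, beside 0.769% of all genes. In diestrus 11 were tested and the same pair was called, beside 0.248%. Runx2, a transcription factor, was 11.9-fold higher in FL1 mice in estrus (adjusted p = 0.0396 by edgeR) and 16.0-fold in diestrus (adjusted p = 0.0274 by edgeR). In diestrus Runx2 was between 0.179 and 2.19 CPM in ctrl mice and between 8.37 and 51.0 CPM in FL1 mice. The size of its difference there thus rested on very low ctrl values, with a 95% interval from 5.50-fold to 46.8-fold. Star, the carrier of cholesterol into mitochondria, was 4.29-fold higher in estrus (adjusted p = 0.0106 by edgeR) and 4.74-fold in diestrus (adjusted p = 0.00899 by edgeR). Star was called in all fits that left out 1 mouse, Runx2 in 4 of 10 in estrus and 6 of 10 in diestrus. Limma-voom called Star but not Runx2 in both stages, and robust estimation called neither in estrus and both in diestrus. Areg, Ptgs2, Il6 and Sult1e1 of this list did not pass the filter within any line or stage. Between the stages in ctrl mice Egr1, an early response gene, was called alone of this list by edgeR, 3.74-fold higher in diestrus (adjusted p = 0.0290) and in 5 of 10 fits that left out 1 mouse. DESeq2 also called Runx1 and Star lower in diestrus there, and limma-voom Runx1. Over both lines 17 were tested and Adamts1, Runx1, Runx2 and Star were called, beside 3.17% of all genes. They were lower in diestrus, by 2.81-, 2.28-, 5.59- and 2.46-fold (adjusted p = 0.0177, 0.0122, 0.00746 and 0.00609 by edgeR). Limma-voom and robust estimation each called Runx1, Runx2 and Star but not Adamts1.

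Prlr, the prolactin receptor, had the pattern most like that of Lhcgr among 10940 genes with a mean of at least 5 CPM, with a Pearson correlation of log2 CPM of 0.89 over 20 mice. It was at 95.1, 96.985, 148, 179 and 233 CPM in ctrl mice in estrus and at 390, 1639, 288, 528 and 511 CPM in FL1 mice in estrus. Its highest value was in the same mouse as that of Lhcgr, and without this mouse the correlation was 0.85 over 19 mice. Tmem71, Rora, Rnf11 and Oxtr followed, with correlations of 0.78, 0.78, 0.77 and 0.74. Between the lines in estrus Prlr was 4.46-fold, the nuclear receptor gene Rora 5.53-fold and the oxytocin receptor gene Oxtr 9.35-fold higher in FL1 mice (adjusted p = 0.0118, 0.0145 and 0.0118 by edgeR). The lowest correlations with Lhcgr were those of Dpysl5 (-0.84), Derl3 (-0.82) and Mras (-0.78).

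Bmpr1b, a receptor for bone morphogenetic proteins, was most like Fshr, with a correlation of 0.90 over 20 mice. Foxp2, Adamts5, Fhdc1 and Kdm7a followed, with 0.89, 0.89, 0.88 and 0.88. All 5 were called higher in diestrus in ctrl mice, but they were chosen on the same mice for their likeness to Fshr. The transcription factor gene Foxp2 was 3.47-fold (adjusted p = 3.59e-04 by edgeR) and the protease gene Adamts5 5.98-fold higher (adjusted p = 3.59e-04 by edgeR). The lowest correlations with Fshr were those of Cela1 (-0.82), Ak1 (-0.81) and Pcsk6 (-0.81). All these correlations describe samples that share line, stage and library composition, and a gene chosen for its likeness to a receptor gene gives no independent evidence of the direction.

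**Figure D5:**
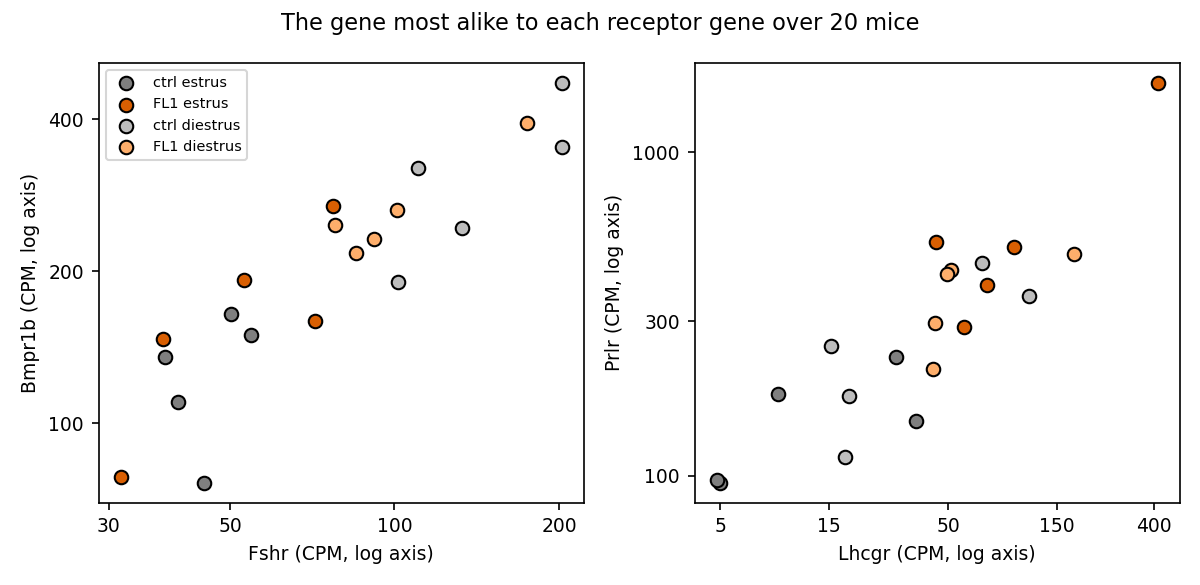
CPM of Bmpr1b against Fshr (left) and of Prlr against Lhcgr (right), both axes logarithmic, with 1 point for each of 20 mice coloured by group. The correlation of log2 CPM was 0.90 on the left and 0.89 on the right, and the point at the top right of the right panel is FL1 estrus replicate 2.

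Markers of the sampled cells and of their neighbours stood beside these results as follows. The 11 GC markers together were between 6529 and 18111 CPM in every mouse, in ctrl mice between 8358 and 11725 CPM in estrus and between 9960 and 16793 CPM in diestrus. The 6 theca markers together were between 63.4 and 331 CPM, and in estrus, where Lhcgr differed, they overlapped between ctrl (80.2 to 156 CPM) and FL1 mice (79.0 to 104.6 CPM). Insl3, the defining product of theca cells, had no read in 3 of the 4 groups, while Cyp17a1, the androgen-making enzyme of theca cells, was 8.97-fold higher in diestrus in ctrl mice (adjusted p = 0.00690 by edgeR). The other 3 theca markers tested there, Ptch1, Hhip and Tcf21, went the other way and were not called (log2 fold changes -0.12, -1.55 and -0.27). The 8 luteal markers together were between 11543 and 17826 CPM in FL1 mice in estrus, above the 3466 to 7188 CPM of ctrl mice in estrus. In diestrus they were between 5144 and 10392 CPM in FL1 mice and between 2753 and 7485 CPM in ctrl mice. Akr1c18, the progesterone-degrading enzyme of luteal cells, was 16.2-fold higher in FL1 mice in estrus (adjusted p = 3.06e-04 by edgeR). With it Fdx1, Prlr and Star were called, 4 of the 8 luteal markers, beside 0.769% of all genes. These 4 were also called without FL1 estrus replicate 2. Akr1c18, Prlr and Star were called in all 10 fits that left out 1 mouse, but with robust estimation Akr1c18 alone was called, and none of the 8 luteal markers was at 0 in a group. Over both stages 5 of them were called higher in FL1 mice, Akr1c18, Cyp11a1, Prlr, Ptgfr and Star, beside 1.21% of all genes. Prlr was called there in 6 of 20 fits that left out 1 mouse and the other 4 in all, and robust estimation called Akr1c18 and Star.

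These luteal genes were higher in the same group as Lhcgr, and their part in its difference was not tested. Within the group they did not all follow Lhcgr. In FL1 estrus replicate 2, the mouse with the most Lhcgr, the luteal marker Cyp11a1 was at its highest value (6214 CPM), as was Runx2 of the LH list (285 CPM). Akr1c18, however, was at 626 CPM, the lowest of its group, where the other mice were between 644 and 3589 CPM, and Star was at 649 CPM, with values of the group between 352 and 1011 CPM. FL1 diestrus replicate 1, which had the most Lhcgr of its group, also had the most Akr1c18 (1115 CPM), Cyp11a1 (1771 CPM) and Runx2 (51.0 CPM) there, while its Star was at 252 CPM, below replicates 2, 3 and 4 of its group (422, 289 and 290.05 CPM). Col3a1, a collagen of stroma, was lower in diestrus in ctrl mice (log2 fold change -1.64, adjusted p = 0.0265 by edgeR), opposite to Fshr, and so were Amhr2, a GC marker (log2 fold change -0.96, adjusted p = 0.0230 by edgeR), and Scarb1, the lipoprotein receptor (log2 fold change -0.96, adjusted p = 0.0293 by edgeR). With 1 mouse left out Col3a1 and Amhr2 were called in 5 and Scarb1 in 2 of 10 fits. Fst, also a GC marker, was called higher in diestrus in ctrl mice (log2 fold change 1.28, adjusted p = 0.0101 by edgeR). Of 11 GC markers tested 1 was thus called higher and 1 lower there, beside 1.36% of all genes, with a median log2 fold change of 0.29. Over both lines Cyp19a1, Fst and Inhba were called higher and no GC marker lower, beside 3.17% of all genes. Summed stroma and muscle markers were between 329 and 1159 CPM in ctrl mice in diestrus and between 786 and 1947 CPM in estrus, and the part of these markers and of the GC markers in the difference of Fshr was not tested. Immune markers together were between 53.6 and 139 CPM in FL1 and between 28.2 and 81.0 CPM in ctrl mice in estrus, and between 16.2 and 104.9 CPM in FL1 and between 7.87 and 24.2 CPM in ctrl mice in diestrus. Over both stages 9 immune markers were tested, with a median log2 fold change of 1.68 toward FL1 mice, and Lyz2, the lysozyme gene of myeloid cells, was called 4.26-fold higher in them (adjusted p = 0.00226 by edgeR, 20 of 20 fits with 1 mouse left out). Of 7 endothelial markers none was called by edgeR, DESeq2 or limma-voom. By edgeR 2 were at an unadjusted p below 0.05, beside 11% of all genes at such a p and 1.21% called. Their median log2 fold change was 1.03 and their sums did not exceed 163 CPM. The part of these markers in the difference of Lhcgr was not tested. Oocyte markers together were between 63.1 and 659 CPM in every mouse, although care was taken to leave out the oocyte. Erythrocyte markers together were between 47.8 and 1625 CPM. Over both stages the median log2 fold changes toward FL1 mice were 0.43 for oocyte and 1.16 for erythrocyte markers. None of either list was called by edgeR there, beside 1.21% of all genes, and their part in the differences of the receptor genes was not tested.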

How the data were processed

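Libraries were made with a 3′ mRNA kit from GCs of 20 mice. After trimming and alignment with STAR to GRCm38, the authors deposited raw counts of reads on each Ensembl gene, without reads that matched several places (per the labels and the methods). The strand setting of the counting is not given in the sources used here. Between 5446576 and 8257041 reads per mouse lay on genes, 48.9% to 58.4% of the reads in a file, and rows for unassigned reads were left out. Of 55487 identifiers 55227 matched GENCODE M21.

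Groups and replicate numbers came from the sample titles. Counts were scaled by TMM and tested with the quasi-likelihood F test of edgeR 4.0.16 in R 4.3.3 after its filter (minimum count 10, total 15, share 0.7), on the 10 mice of a stage or line, or on all 20 with line and stage as terms, with or without interaction. P-values were adjusted by Benjamini-Hochberg over all genes tested, and genes were called at 0.05 or less. Alternatives were DESeq2 1.42.0 (the study's tool), limma-voom with sample weights (limma 3.58.1), RLE scaling, no filter, robust estimation, all mice in one fit, a block for the replicate number, and fits without 1 mouse. Calls of single genes with 1 mouse left out were added after seeing the data. The ratio used a pseudocount of 0.5 and an exact permutation test. The tests were tried on simulated data. Copies were searched with BLAST 2.17.0, and promoter sequences are from RefSeq (both genes matched).

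The rule for named genes takes the receptor genes, from each gene list every called gene and the 3 with the highest mean CPM (named as far as needed), protein-coding genes within 500 kb, and the 5 most and 3 least correlated genes. Factors named for their motifs and genes near 0 are outside it. The members and lists were chosen with earlier results of these data known.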

Additional observations from a re-analysis of the deposited data

Results flagged for a closer look

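In 12 sets of 5 mice (Fshr, Lhcgr and their ratio in each group) the gap between the most extreme mouse and its neighbour was compared with the whole range, and 3 gaps exceeded Dixon's 95% critical value of 0.710. For normally distributed values chance alone exceeds it in about 1 of 20 sets (5%). All were highest values in FL1 mice. The gaps of Fshr and Lhcgr were taken on CPM and those of the ratio on log2 values. On log2 CPM, a scale added after seeing the data, Lhcgr in FL1 mice in diestrus alone of the 8 sets of the receptor genes exceeded the critical value, with a gap of 0.869 of the range, while the gap was 0.648 for Lhcgr in FL1 mice in estrus and 0.677 for Fshr in FL1 mice in diestrus.

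Lhcgr in FL1 estrus replicate 2 was at 415 CPM, where the next mouse was at 97.4 CPM and the gap made up 0.857 of the range. The effect of this mouse on the difference between the lines is given with that result. Lhcgr in FL1 diestrus replicate 1 was at 177 CPM, with the next mouse at 51.5 CPM and a gap of 0.935 of the range, and without it the mean of the group was 46.8 ± 4.26 CPM (SD, n = 4). Fshr in FL1 diestrus replicate 5 was at 175 CPM, with the next mouse at 101.2 CPM and a gap of 0.760 of the range, and without it the mean was 89.0 ± 9.88 CPM (SD, n = 4).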

How the results depend on the processing

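Fshr kept its direction and its side of the threshold in all comparisons under DESeq2, limma-voom, RLE scaling, robust estimation and one fit of all mice. Without the filter its stage effect in FL1 mice passed (log2 fold change 0.96, adjusted p = 0.0408 by edgeR). Lhcgr between the lines in estrus lost its call with limma-voom (3.07), robust estimation (3.02) and the replicate block (2.81, adjusted p = 0.0820 by edgeR), and ranged from 2.02 to 3.51 when 1 mouse was left out. Over both stages Lhcgr passed with limma-voom (1.79, adjusted p = 0.0466) and without the filter (1.82, adjusted p = 0.00360), and ranged from 1.29 to 2.18 with 1 mouse left out. Its stage effect over both lines turned to -0.32 with limma-voom and ranged from -0.10 to 0.79 with 1 mouse left out, and in FL1 mice from -1.57 to 0.077. The stage difference of the log2 ratio ranged from -0.56 to 0.17 in ctrl mice and from -2.08 to -0.93 in FL1 mice, where it passed without FL1 diestrus replicate 1 (adjusted permutation p = 0.0476). The causes of these changes were not tested.

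Numbers of called genes differed by more than 1.5 times from the main test with DESeq2 (310 for line in estrus, 86 for line in diestrus, 423 for stage in ctrl, 225 for stage in FL1, 377 for line and 791 for stage over all mice) and without the filter (373 for line in estrus, 3.34 times the main number for line in diestrus, 348 for stage in ctrl, 299 for stage in FL1, 319 for line over both stages and 6 for the interaction). With limma-voom this held for stage in FL1 (130), line over both stages (286) and stage over both lines (787), with one fit of all mice for stage in FL1 (65), and with the block for the line in estrus (58) and in diestrus (13). With 1 mouse left out stage in FL1 gave 13 to 178 calls, stage in ctrl 77 to 176, line in estrus 66 to 130, line in diestrus 21 to 32 and stage over both lines 324 to 728. The replicate numbers name different mice. Same-numbered mice had correlations of -0.27 to 0.20, with 4 of 20 pairs above 0.1, and the labels do not say what the numbers mean. These correlations cannot show whether mice of the same number share a batch, so the replicate block is given as an alternative. At 31 to 61 reads in 3 ctrl mice in estrus, counting error adds to the spread of Lhcgr.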
